A study of Mus musculus with 12 samples.

Results

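Desmosome genes were followed in RNA from sorted mouse mammary epithelial cells with and without SmoM2, an active form of the Hedgehog signal transducer Smoothened. The 10 genes were the desmogleins Dsg2 and Dsg3, the desmocollins Dsc2 and Dsc3, the plakin Dsp, plakoglobin (Jup) and the plakophilins Pkp1, Pkp2, Pkp3 and Pkp4. They were taken by symbol from the 20114 entries that name a single locus in a count table of 36635 entries. Each of the 10 matched 1 entry, and all 10 passed the filter on low counts, which left 14039 loci to test.

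The cells came from adult females, 9 weeks old, with Swiss Webster, C57BL/6 and 129X1/SvJ in their background. Recombined cells carried mT-mG/SmoM2;MMTV-Cre and were SmoM2 positive and green. Unrecombined cells had the same genotype, mT-mG/SmoM2;MMTV-Cre, but were SmoM2 negative and red. Wild type cells carried mT-mG/SmoM2;+, with no Cre, and were red. All 3 groups thus carried mT-mG, a reporter whose membrane label changes from red to green once Cre has acted, and the SmoM2 allele. Cre was driven by the MMTV promoter, which is active in mammary epithelium and also in other secretory epithelia such as the salivary gland. No group was green without SmoM2, so the effects of SmoM2, of recombination and of the sorted color cannot be told apart. Each group had 4 libraries, numbered 1 to 4 in the labels. The animals behind each library are not named in the labels, and p-values here measure only how far libraries spread, which may be technical.

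A desmosome is a spot-like junction that ties the keratin filaments of neighboring epithelial cells together. Desmogleins and desmocollins are cadherins that span the membrane and bind each other between cells. Plakoglobin and the plakophilins bind their tails inside the cell, and desmoplakin links these proteins to keratin. Dsg2 and Dsc2 are the common pair of simple epithelia, whereas Dsg3 and Dsc3 are known from the basal layers of stratified epithelia. Pkp1 is known from the suprabasal and basal layers of stratified epithelia. In the mammary gland both the luminal and the basal, myoepithelial layer form desmosomes.

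Total counts lay between 19581993 and 34779433 per library, and the 10 genes together took 0.0834% to 0.234% of them. The epithelial markers Epcam, Cdh1, Krt8 and Krt18 were detected in all 12 libraries, with summed levels (CPM, reads scaled to the size of the library) of 3364 to 5428 in wild type, 2821 to 4808 in unrecombined and 2040 to 3774 in recombined libraries. Recombined libraries 3 and 4 stood apart from the rest along the leading principal component (30.8% of the variance). Salivary gland transcripts reached a summed 18825 to 90156 CPM in the 3 libraries numbered 2 and 1277 and 1360 CPM in recombined and unrecombined library 1. The sum was 41.6 to 70.3 CPM in the other 7, nearly all of it from the Amy1 entry (46.9 of 47.0 CPM in wild type 1). That entry also joins Rnpc3 and other symbols, so these low sums need not be salivary RNA. In bulk RNA, a change in the number of cells of a type and a change in RNA per cell cannot be told apart.

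The promoters of Dsp and Pkp4 are printed because these are the genes with high levels that differed between recombined cells and both other groups. Each is the 250 bases before the gene's first start site in RefSeq on GRCm38.p6, plus strand, 5′ to 3′. Capitals mark the GC box GGGCGG, searched on both strands, where overlapping matches run together.
Dsp, chr13:38151044-38151293: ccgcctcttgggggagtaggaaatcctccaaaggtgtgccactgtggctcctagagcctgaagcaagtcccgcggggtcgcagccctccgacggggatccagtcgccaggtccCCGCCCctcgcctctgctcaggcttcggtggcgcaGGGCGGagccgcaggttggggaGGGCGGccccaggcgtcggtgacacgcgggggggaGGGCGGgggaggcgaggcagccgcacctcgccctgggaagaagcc
Pkp4, chr2:59160600-59160849: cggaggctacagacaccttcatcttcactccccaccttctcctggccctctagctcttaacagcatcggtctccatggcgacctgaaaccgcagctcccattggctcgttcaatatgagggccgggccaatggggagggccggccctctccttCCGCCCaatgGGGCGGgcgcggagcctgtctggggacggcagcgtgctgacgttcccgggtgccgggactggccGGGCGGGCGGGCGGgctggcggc
The Dsp window held 4 GC boxes and 72.4% G and C. The Pkp4 window held 5 GC boxes and 68.4% G and C. The window of a later Pkp4 start, not printed, held no GC box. Of 32851 windows of the same length in the table, 32.7% held at least 1 GC box. GACCACCCA, the core letters bound by GLI factors, was in neither window on either strand and was in 0.225% of all windows.

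**Figure D1:**
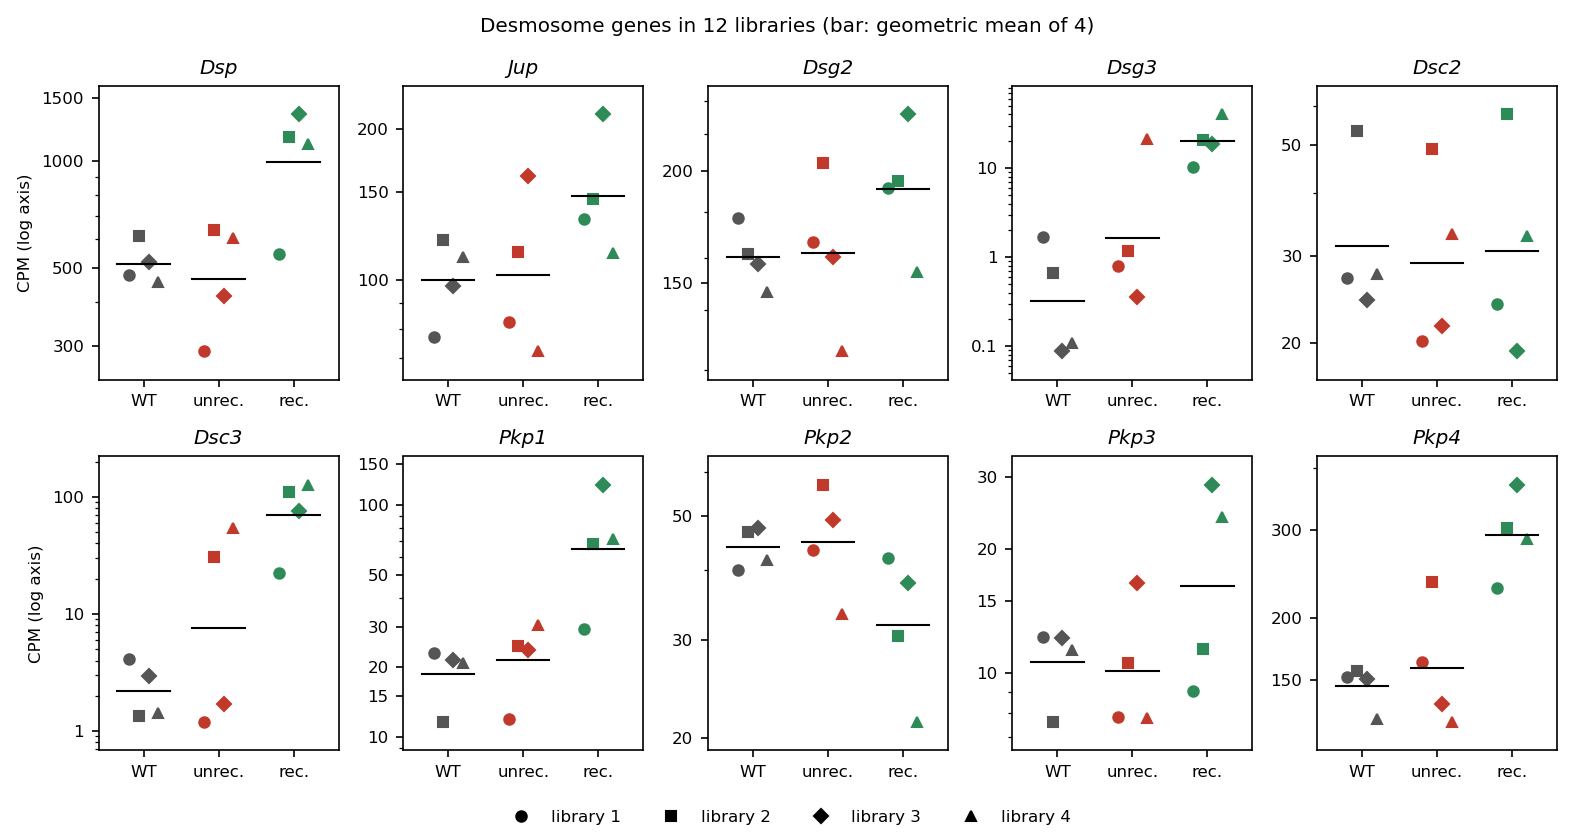
Level of each desmosome gene (CPM, log axis) in the 4 wild type (WT), 4 unrecombined (unrec.) and 4 recombined (rec.) libraries. Each point is a library, its shape gives the library number, and the line is the geometric mean of the group. Dsg3, Dsc3, Pkp1 and Pkp4 lie higher in all 4 recombined libraries than in any wild type library.

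Against wild type cells, the recombined cells had more RNA of 5 of the 10 desmosome genes and less of none, by edgeR's quasi-likelihood test with Benjamini-Hochberg adjustment under 0.05. The 5 were Dsg3, Dsc3, Dsp, Pkp1 and Pkp4. Over all loci tested, 4.17% were called higher and 2.38% lower. The median log2 fold change was 0.88 over the 10 genes and -0.02 over all loci. The fitted fold change was positive for 9 of the 10, and for 48.5% of all loci. For Dsg3, Dsc3, Pkp1 and Pkp4 the lowest recombined library exceeded the highest wild type library, a pattern shown by 6.33% of loci.

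Dsg3, a desmoglein of basal keratinocytes (mm9 chromosome 18, entry start 20668804), was near the limit of counting in wild type cells. Its CPM was 1.67, 0.658, 0.0873 and 0.108 in wild type libraries 1 to 4, where the last 2 values stand for 2 and 3 reads. It was 10.3, 20.6, 18.7 and 40.0 in recombined libraries 1 to 4. Every recombined library was above every wild type library. The log2 fold change was 5.12 ± 1.35 (SE), with an edgeR adjusted p of 0.0419.

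Dsc3, the desmocollin that accompanies Dsg3 in basal layers (chromosome 18, entry start 20119430), followed the same order. Its CPM was 4.16, 1.35, 2.92 and 1.43 in wild type and 22.5, 111, 75.4 and 127 in recombined libraries. The lowest recombined library was again above the highest wild type library. This amounts to 5.08 ± 1.19 (SE) in log2 fold change (edgeR adjusted p 0.0277).

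The other cadherin of each kind showed no such difference. Dsg2, the general desmoglein (chromosome 18, entry start 20716616), was at 177, 162, 157 and 147 CPM in wild type and at 192, 195, 232 and 154 CPM in recombined libraries. These ranges overlap, and its log2 fold change of 0.27 ± 0.165 (SE) had an edgeR adjusted p of 0.401. Dsc2, the general desmocollin (chromosome 18, entry start 20189298), was at 27.1, 53.3, 24.4 and 27.6 CPM in wild type and at 24, 57.6, 19.3 and 32.8 CPM in recombined libraries. Its log2 fold change was 0.01 ± 0.379 (SE), with an edgeR adjusted p of 0.990. The high Dsc2 values belong to the libraries numbered 2. Over all 3 groups these 3 libraries held 49.1 to 57.6 CPM of Dsc2 and the other 9 held 19.3 to 33.1 CPM. The same 3 libraries held the most salivary gland transcripts, whose part in the Dsc2 level was not tested.

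Dsp, the desmoplakin that anchors keratin (chromosome 13, entry start 38243162), was at 475, 614, 519 and 454 CPM in wild type libraries. It was at 544, 1165, 1348 and 1116 CPM in recombined libraries. Recombined library 1 lay within the wild type range and the other 3 lay above it. Its rise was 1.02 ± 0.277 (SE) in log2 fold change (edgeR adjusted p 0.0424).

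Plakoglobin is shared by desmosomes and adherens junctions. Jup (chromosome 11, entry start 100231932) was at 77.1, 120, 97.4 and 111 CPM in wild type and at 133, 145, 214 and 113 CPM in recombined libraries. Recombined library 4 fell inside the wild type range. The log2 fold change of 0.58 ± 0.259 (SE) had an edgeR adjusted p of 0.225.

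Among the plakophilins, Pkp1 and Pkp4 rose. Pkp1, known from suprabasal and basal stratified epithelium (chromosome 1, entry start 137767971), was at 23.2, 11.6, 21.6 and 20.9 CPM in wild type and at 29.4, 68.2, 122 and 71.9 CPM in recombined libraries. Its log2 fold change was 1.92 ± 0.390 (SE), with an edgeR adjusted p of 0.00984. Pkp4, a plakophilin also found at adherens junctions (chromosome 2, entry start 58998906), was at 152, 156, 151 and 125 CPM in wild type and at 229, 303, 370 and 288 CPM in recombined libraries. The groups did not overlap for either gene. Pkp4 rose by 1.03 ± 0.205 (SE) on the log2 scale (edgeR adjusted p 0.00877).

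Pkp2, the plakophilin of simple epithelia and heart (chromosome 16, entry start 16213437), was the one gene of the 10 with a negative fold change. It was at 40.1, 46.9, 47.6 and 41.6 CPM in wild type and at 42.0, 30.5, 38.0 and 21.4 CPM in recombined libraries. Recombined library 1 lay inside the wild type range and the other 3 below it. The log2 fold change of -0.42 ± 0.222 (SE) had an edgeR adjusted p of 0.313. Pkp3, a plakophilin of most epithelia (chromosome 7, entry start 148264127), was at 12.2, 7.62, 12.2 and 11.4 CPM in wild type and at 9.08, 11.4, 28.6 and 24 CPM in recombined libraries. Its high values were those of recombined libraries 3 and 4, the ones that stand apart. The log2 fold change of 0.75 ± 0.381 (SE) had an edgeR adjusted p of 0.292, and without those libraries it was -0.09.

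The calls of Pkp1 and Pkp4 held when each of the 12 libraries was left out in turn. The call of Dsc3 was lost without any 1 of the wild type libraries or without recombined 3 or 4, with edgeR adjusted p of 0.0602 to 0.0997. That of Dsg3 was lost without wild type 2, 3 or 4 or recombined 2, 3 or 4, at 0.0593 to 0.120. That of Dsp was lost without any 1 of the wild type libraries, unrecombined 3 or recombined 2, 3 or 4, at 0.0537 to 0.125. Without recombined 3 and 4 together, which leaves 2 recombined libraries, none of the 10 was called and 248 loci in all were. The log2 fold changes were then 4.57 for Dsg3, 4.75 for Dsc3, 0.73 for Dsp, 1.34 for Pkp1 and 0.86 for Pkp4.

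Libraries whose labels begin with 231 and those that begin with 246 may be 2 series, and each series holds all 3 groups. Within the 231 series (2 recombined against 3 wild type), the difference in mean log2 CPM was 4.86 for Dsg3, 4.28 for Dsc3, 0.58 for Dsp, 1.32 for Pkp1 and 0.79 for Pkp4. Within the 246 series (2 against 1) it was 7.77, 6.07, 1.43, 2.16 and 1.38 in the same order. The sign was the same in both series for all 5 genes, which were picked by their call over all libraries, so this is a description. Among genes not called, Dsg2 and Jup had every recombined library above every wild type library within each series. For Jup in the 246 series this rests on 113 CPM in recombined 4 against 111 CPM in wild type 4. The called gene Dsp did not have this pattern in the 231 series. The share of all loci with the pattern was not counted, and so few libraries support nothing about these genes. With the series as a covariate in edgeR, Pkp1 and Pkp4 were called, and the adjusted p was 0.0550 for Dsc3, 0.0735 for Dsg3 and 0.0829 for Dsp.

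**Figure D2:**
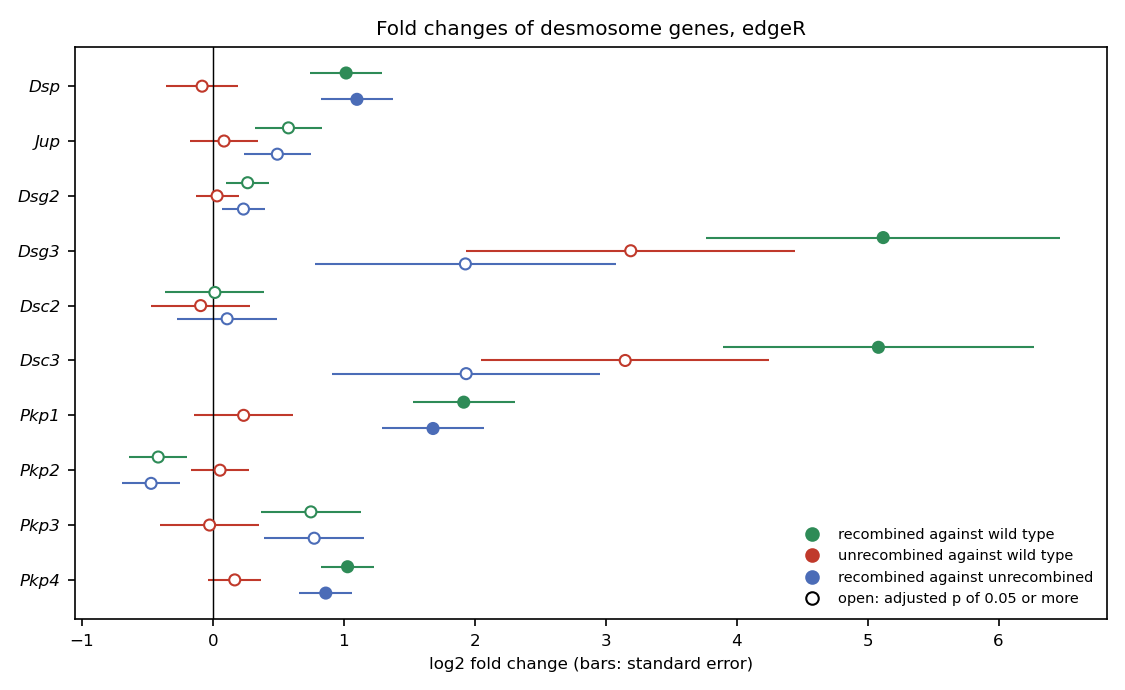
Log2 fold change of each desmosome gene in the 3 comparisons, from edgeR, with bars of 1 standard error. Filled points have an adjusted p under 0.05. Filled points occur for Dsp, Pkp1 and Pkp4 in both comparisons with recombined cells, and for Dsg3 and Dsc3 against wild type.

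Unrecombined cells share the animals' genotype with recombined cells but not the activated allele, and comparing them with wild type cells asks whether desmosome genes differ in cells of these animals that did not recombine. None of the 10 passed edgeR's adjusted threshold, and neither did any of the 14039 loci (0%). At an unadjusted edgeR p under 0.05 there were 541 loci, or 3.85%, and 2 of the 10 genes, Dsc3 at 0.0152 and Dsg3 at 0.0254. DESeq2 called 78 loci and limma-voom called 18, none of them a desmosome gene. For none of the 10 did the 2 groups lie apart, whereas 2.86% of loci had all unrecombined libraries higher and 1.55% all lower. Log2 fold changes of 8 of the 10 genes lay between -0.09 and 0.23.

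The remaining 2, Dsc3 and Dsg3, varied among the unrecombined libraries. Dsc3 was at 1.20, 30.7, 1.69 and 54.2 CPM in unrecombined libraries 1 to 4, so libraries 1 and 3 were at the wild type level and libraries 2 and 4 far above it. Dsg3 was at 0.797, 1.17, 0.359 and 21.2 CPM, with library 4 alone above the wild type range. The log2 fold changes against wild type were 3.15 ± 1.10 (SE) for Dsc3 and 3.19 ± 1.26 (SE) for Dsg3, each with an edgeR adjusted p of 1.00. Without unrecombined 2 and 4 they were -0.78 and -0.15. The summed level of the 8 basal and myoepithelial markers was 384 and 361 CPM in unrecombined libraries 1 and 3 and 996 and 934 CPM in libraries 2 and 4. In wild type libraries this sum was 724 to 920 CPM, with Dsc3 at 1.35 to 4.16 CPM. Unrecombined library 2 had the highest of these sums, with Dsg3 at 1.17 CPM, inside the wild type range. The part of basal cells in the spread of Dsc3 and Dsg3 was not tested.

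The other 8 genes were close to wild type in unrecombined cells. Dsp was at 290, 637, 415 and 604 CPM, Jup at 82.8, 114, 162 and 72.2 CPM and Dsg2 at 167, 205, 160 and 126 CPM. Pkp1 was at 12, 24.7, 23.8 and 30.5 CPM and Pkp4 at 163, 236, 134 and 123 CPM. Each of these ranges overlaps that of the wild type libraries. Pkp2 ranged from 33.4 to 56.9 CPM, Pkp3 from 7.78 to 16.5 CPM and Dsc2 from 20.2 to 49.1 CPM, again overlapping wild type.

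Recombined cells were then compared with the unrecombined cells of the same genotype. Dsp, Pkp1 and Pkp4 were higher in recombined cells, which is 3 of the 10 genes, and 3.08% of all loci were called higher. No desmosome gene was called lower, as were 2.14% of loci. Their log2 fold changes were 1.10 ± 0.277 (SE), 1.68 ± 0.386 (SE) and 0.86 ± 0.204 (SE), with edgeR adjusted p of 0.0333, 0.0199 and 0.0233. None of the 10 genes had all 4 recombined libraries above all 4 unrecombined ones, a pattern seen in 5.57% of loci. This comparison and the one with wild type cells share the recombined libraries, so their values are not independent.

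Recombined and unrecombined libraries of the same number deviated from their group means together over all loci, and the comparison was therefore also read pair by pair. For Dsp the log2 difference in CPM was 0.91, 0.87, 1.70 and 0.89 in pairs 1 to 4. For Pkp1 it was 1.30, 1.47, 2.36 and 1.24, and for Pkp4 it was 0.49, 0.37, 1.47 and 1.23. All 3 genes were higher in the recombined library of each pair. They had been picked by their call in these same libraries, so this is a description. How many of all loci have the same sign in all 4 pairs was not counted, here or for the genes below.

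The pairs also showed a difference for the cadherins of stratified epithelia. For Dsc3 the log2 difference was 4.23, 1.86, 5.48 and 1.22, and for Dsg3 it was 3.69, 4.14, 5.70 and 0.92. Jup differed by 0.68, 0.35, 0.41 and 0.65. With the library number as a block and these 2 groups alone in the fit, 6 of the 10 genes were called higher, against 4.25% of all loci. They were Dsg3, Dsc3, Dsp, Jup, Pkp1 and Pkp4. The blocked log2 fold change was 3.55 ± 0.710 (SE) for Dsg3, 3.04 ± 0.666 (SE) for Dsc3 and 0.52 ± 0.129 (SE) for Jup, with edgeR adjusted p of 0.0167, 0.0253 and 0.0426. In the same 2 groups without the block, the edgeR adjusted p was 0.481 for Dsg3, 0.499 for Dsc3 and 0.448 for Jup. In the fit of all 12 libraries it was 0.417, 0.356 and 0.341 without the block and 0.150, 0.244 and 0.142 with it, in the same order. With the block in a fit of all 12 libraries, Dsp, Pkp1 and Pkp4 were called, against 4.02% of loci higher.

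Pkp2 was lower in the recombined library of all 4 pairs, by log2 differences of -0.05, -0.90, -0.37 and -0.64, and did not pass (log2 fold change -0.47 ± 0.222 (SE), edgeR adjusted p 0.282). Pkp3 was higher in all 4 pairs, by 0.21, 0.11, 0.79 and 1.62, and did not pass either (edgeR adjusted p 0.307). Dsg2 and Dsc2 had both signs among the pairs, with edgeR adjusted p of 0.504 and 0.921.

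Without the block, single libraries also decided these calls. The call of Dsp was lost without wild type 3, unrecombined 1 or 3, or recombined 2, 3 or 4, with edgeR adjusted p of 0.0510 to 0.0954. That of Pkp1 was lost without unrecombined 1, 2 or 3 or recombined 3, at 0.0502 to 0.0655, and that of Pkp4 without unrecombined 1, 3 or 4 or recombined 3, at 0.0616 to 0.0785. Dsg3 was called without unrecombined 4, with a log2 fold change of 4.84 and an edgeR adjusted p of 0.0102. Without recombined 3 and 4 together none of the 10 was called and 282 loci were.

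**Figure D3:**
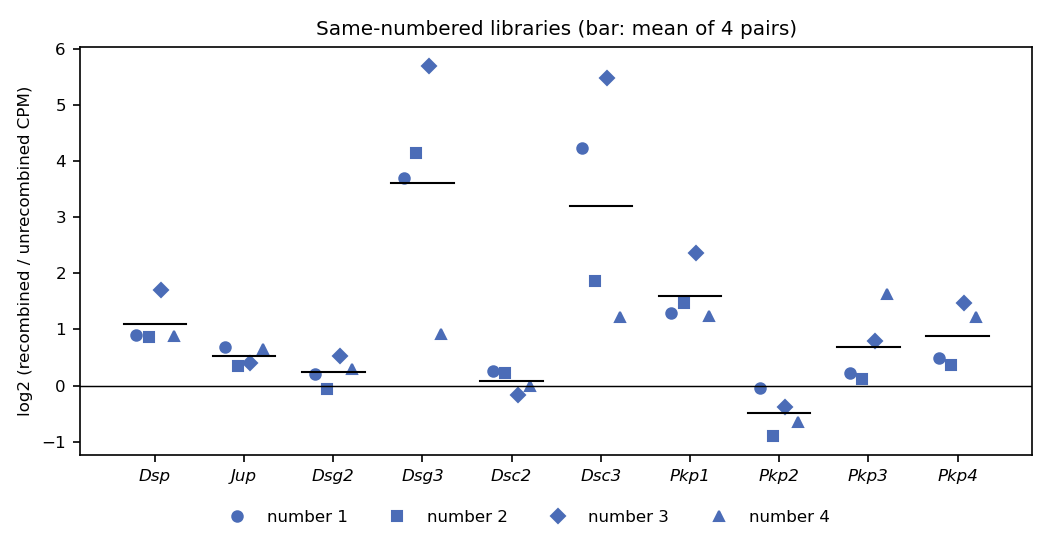
Log2 ratio of the CPM of a recombined library to that of the unrecombined library of the same number, for each desmosome gene. Points are the 4 pairs and lines their mean. Dsp, Jup, Dsg3, Dsc3, Pkp1, Pkp3 and Pkp4 are above 0 and Pkp2 is below 0 in all 4 pairs. The share of all loci with the same sign in all 4 pairs was not counted.

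Levels of different genes were compared per length, as CPM per kilobase of the longest protein-coding transcript in GENCODE vM21. Dsp had the highest level in each group, at 53.7 ± 7.37 CPM per kilobase (SD, n = 4) in wild type cells, 50.7 ± 17.0 in unrecombined cells and 109 ± 36.2 in recombined cells. In wild type cells Jup, Pkp4 and Dsg2 followed, at 31.7 ± 5.84, 31.7 ± 3.07 and 27.9 ± 2.20 CPM per kilobase, and these neighbors lay within their spread. Pkp2 was next at 15.1 ± 1.29, then Dsc2 at 7.15 ± 2.93. Pkp1 at 4.14 ± 1.11 and Pkp3 at 3.72 ± 0.753 did not differ beyond their spread. Dsc3 at 0.463 ± 0.251 and Dsg3 at 0.101 ± 0.119 were last.

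In unrecombined cells the order was the same, except that Pkp4 and Jup, and Dsc3 and Pkp3, changed places, in each case by less than the spread. Pkp4 was at 35.5 ± 10.97 and Jup at 33.6 ± 12.5 CPM per kilobase, and Dsc3 at 4.11 ± 4.79 and Pkp3 at 3.66 ± 1.41. The place of Dsc3 rests on unrecombined libraries 2 and 4. In recombined cells more places changed. Pkp4 came after Dsp, at 64.6 ± 12.5 CPM per kilobase, followed by Jup at 47.2 ± 13.7 and Dsg2 at 33.5 ± 5.47. Dsc3 at 15.7 ± 8.66 and Pkp1 at 15.6 ± 8.16 stood next, level with each other and above Pkp2 at 11.3 ± 3.12. The spreads of these 3 overlap. Dsc2 at 7.22 ± 3.69 and Pkp3 at 6.26 ± 3.26 were not apart, and Dsg3 stayed last at 3.6 ± 2.03.

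Within each family the balance between paralogs was taken per length in each library, as a description with no test. Only the members were counted, so Dsc1, Dsg1a and Dsg1b are not in these shares. Dsc3 made up 2.16% to 11.8% of the summed Dsc2 and Dsc3 level in wild type libraries and 44.8% to 77.2% in recombined libraries. In unrecombined libraries 1 to 4 it was 4.88%, 35.1%, 6.35% and 58.7%. Dsg3 stayed below Dsg2 in every library. Its mean share of the summed Dsg2 and Dsg3 level was 0.341% in wild type cells, 3.67% in unrecombined cells and 10.003% in recombined cells.

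The plakophilin family also had another makeup. Pkp2 held a mean of 27.7% of the plakophilin level in wild type cells, 26.3% in unrecombined cells and 12.1% in recombined cells. Pkp1 held 7.60%, 8.52% and 15.2%, and Pkp4 held 57.9%, 58.9% and 66.5%, in the same order. The share of Pkp3 was 6.83%, 6.25% and 6.18%. Pkp1 was below Pkp2 in all 8 red libraries and in recombined library 1, and above it in recombined libraries 2, 3 and 4.

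**Figure D4:**
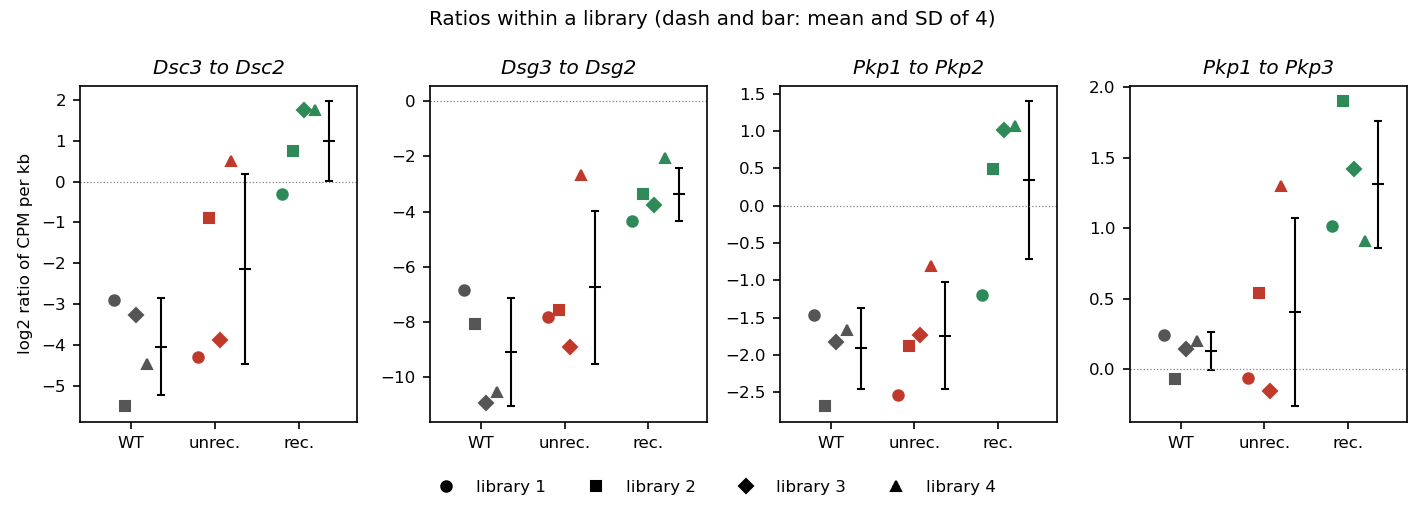
Log2 ratio of 2 paralogs per length within each library, for Dsc3 to Dsc2, Dsg3 to Dsg2, Pkp1 to Pkp2 and Pkp1 to Pkp3, in wild type (WT), unrecombined (unrec.) and recombined (rec.) cells. Points are libraries, and the dash and bar beside them are the mean and SD of 4. The Dsc3 to Dsc2 ratio rises from a mean of -4.04 in wild type to 0.99 in recombined cells.

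Dsg3 and Dsc3 are known from basal layers, and Pkp1 from suprabasal and basal layers. Their levels were therefore set beside the basal and myoepithelial markers Trp63, Krt5, Krt14, Acta2, Myh11, Cnn1, Mylk and Oxtr. Of these 8, 7 rose and none fell in recombined against wild type cells, and 8 rose against unrecombined cells. Their summed level was 724 to 920 CPM in wild type libraries and 1660, 4248, 4553 and 7388 CPM in recombined libraries 1 to 4. Of 6 markers of luminal hormone-sensing cells, 5 fell against wild type and 3 against unrecombined cells. With the block and these 2 groups alone, Pgr and Ly6a also fell against unrecombined cells (edgeR adjusted p 0.00579 and 0.00140), which makes 5. All 6 fibroblast markers fell in both comparisons, with summed levels of 1337 to 3157 CPM in wild type, 4915 to 7000 CPM in unrecombined and 203 to 561 CPM in recombined libraries. The part of these cell types in the desmosome results was not tested.

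Per 1000 CPM of the 8 basal markers, a measure chosen after the values were seen, the genes did not behave alike. The basal sum itself was 724 to 920 CPM in wild type and 1660 to 7388 CPM in recombined libraries. A gene that rose less than this sum comes out lower on this scale, and one that rose more comes out higher. The scale thus restates the fold changes and is no correction for the number of basal cells. Dsc3 had 1.58 to 4.52 CPM in wild type and 13.5 to 26.1 CPM in recombined libraries, so the groups stayed apart. Dsg3 had 0.102 to 1.81 CPM in wild type and 4.10 to 6.19 CPM in recombined libraries. Pkp1 had 16.1 to 25.2 CPM in wild type and 9.73 to 26.9 CPM in recombined libraries, which overlap. In unrecombined libraries the ranges were 3.12 to 58.0 CPM for Dsc3, 0.995 to 22.7 CPM for Dsg3 and 24.8 to 65.7 CPM for Pkp1. On this scale the other called genes, Dsp and Pkp4, were not higher in recombined cells. Dsp had 502 to 847 CPM in wild type and 151 to 328 CPM in recombined libraries, so all recombined libraries were lower. Pkp4 had means of 174 and 82.5 CPM, with ranges that just touch. The means of the 5 uncalled genes were also lower in recombined than in wild type libraries, at 58.3 against 190.5 CPM for Dsg2, 9.18 against 40.5 for Dsc2, 44.1 against 121.6 for Jup, 10.9 against 52.5 for Pkp2 and 4.42 against 12.7 for Pkp3.

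**Figure D5:**
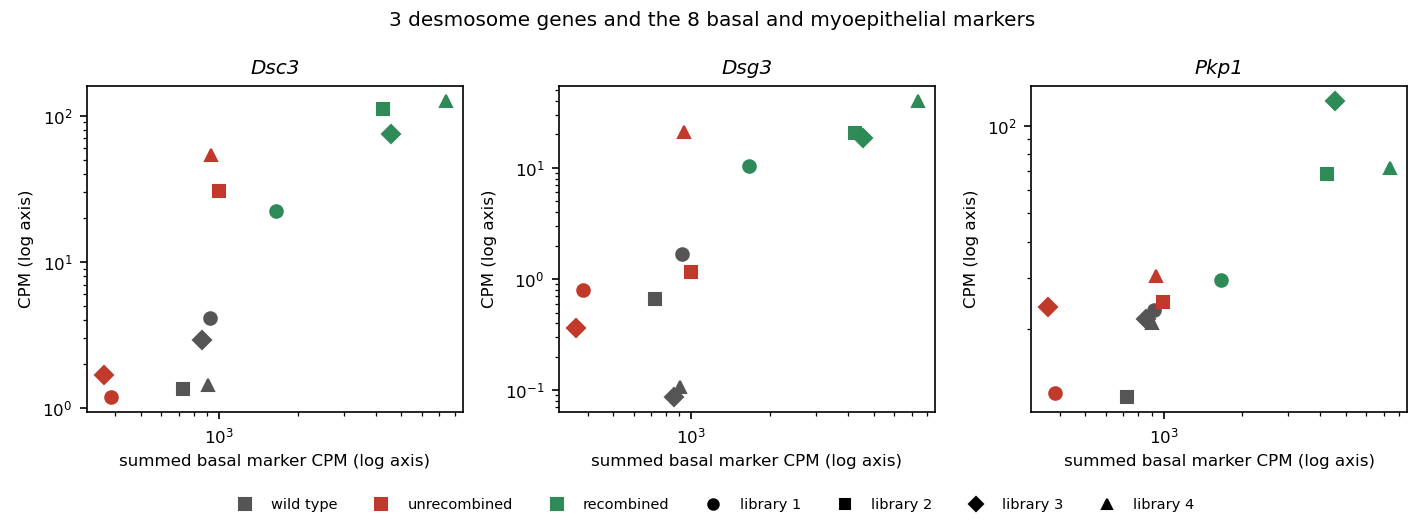
Level of Dsc3, Dsg3 and Pkp1 (CPM, log axis) against the summed level of 8 basal and myoepithelial markers (CPM, log axis) in each of the 12 libraries. Color gives the group and shape the library number. Unrecombined libraries 2 and 4 have basal sums near those of wild type (996 and 934 CPM) but higher Dsc3 (30.7 and 54.2 CPM).

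Other desmosome and cornified envelope genes were read from a list of 11, of which 10 were measured and 6 could be tested. Against wild type, 3 rose and none fell. Perp, a membrane protein of desmosomes and a target of p63, rose by 1.98 ± 0.377 (SE) on the log2 scale (edgeR adjusted p 0.00697). Ppl, Evpl and Pof1b had log2 fold changes of 0.48, -0.04 and -0.74 and did not pass. The others that rose were Dsg1a and Dsg1b, near-identical copies whose reads may be split between them, so each count is uncertain. Both passed the filter on low counts through the libraries where they are high, and the low genes Dsc1, Dsg1c, Dsg4 and Cdsn did not pass it, so the count of 3 supports nothing about the list. Dsg1a had 0 reads in all 4 wild type libraries and 69, 197, 78 and 428 in recombined libraries 1 to 4, at least 263-fold higher against a floor of 3 counts over the wild type group. Dsg1b had 1 read over the wild type group and 29, 138, 68 and 103 reads in recombined libraries, a ratio of 346 with a 95% interval of 61.6 to 13692 that covers counting error only. The call of Dsg1b was lost without any 1 of the wild type libraries (edgeR adjusted p 0.0590 to 0.0737).

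Unrecombined library 4 and, less so, library 2 also held reads of these desmogleins. Dsg1a had 0, 29, 1 and 57 reads and Dsg1b 0, 25, 0 and 94 reads in unrecombined libraries 1 to 4. Dsg4, a desmoglein of hair, had 0 reads in all wild type and recombined libraries, which allows up to 0.0283 and 0.0289 CPM, and 1 read in unrecombined library 4. Against unrecombined cells, Perp rose by 1.5 on the log2 scale and Ppl, the plakin periplakin, by 0.78, with edgeR adjusted p of 0.0303 and 0.0448. Perp lost this call without unrecombined 1 or 3 or recombined 2, 3 or 4 (0.0653 to 0.0940), and Ppl lost it without any 1 library other than unrecombined 3 or recombined 1 or 2 (0.0545 to 0.140).

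Keratins that desmosomes hold were read from a list of 11, of which 10 were tested. Krt5, Krt14 and Krt17, keratins of basal cells, rose against wild type by log2 fold changes of 3.34, 2.86 and 2.67, and none fell. Against unrecombined cells these 3 and Krt15 rose. The call of Krt15 was lost without any 1 library other than wild type 1 or 3 or recombined 1 (edgeR adjusted p 0.0511 to 0.128). The luminal keratins Krt8 and Krt18 did not pass, at means of 295 and 991 CPM in wild type and 148 and 508 CPM in recombined cells. The list's median log2 fold change against wild type was 0.88, which lies in a gap between opposite sets. Called or not, Krt5, Krt14, Krt15, Krt16 and Krt17 were at 1.88 to 3.34. Krt6a, Krt7, Krt8, Krt18 and Krt19 were at -1.27 to -0.125.

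Of 11 regulators and proteases of desmosomes, 3 rose and 1 fell against wild type. Trp63, which encodes p63, a factor of basal epithelial cells, rose by 3.25 on the log2 scale (edgeR adjusted p 0.00139). Egfr, a receptor kinase, rose by 0.85 (edgeR adjusted p 0.0156), and Atp2a2, a calcium pump whose loss weakens desmosomes in skin, rose by 0.63 (edgeR adjusted p 0.0409). Adam10, a protease that sheds cadherins, fell by 1.38 on the log2 scale (edgeR adjusted p 0.00054). The call of Atp2a2 was lost without any 1 library other than unrecombined 4 or recombined 1 or 4 (edgeR adjusted p 0.0518 to 0.107). Against unrecombined cells Trp63 rose and Adam10 fell, with log2 fold changes of 3.30 and -0.96. The median of the list against wild type was 0.20.

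Of 7 tested adherens junction genes, 2 rose and none fell in each comparison with recombined cells. They were Cdh3, the P-cadherin of myoepithelial cells, with log2 fold changes of 2.65 and 2.91 against wild type and unrecombined cells, and Pvrl1, the nectin-1 gene, with 1.94 and 2.05. Cdh1, E-cadherin, did not pass and had means of 1383, 1300 and 1322 CPM in wild type, unrecombined and recombined cells. The median of the list was 0.20 against wild type. With the library number as a block and recombined and unrecombined libraries alone, Dsg1a, Krt16 and Vcl were also called higher (edgeR adjusted p 0.0169, 0.0137 and 0.0421), Krt7, Krt8 and Krt18 were called lower (0.0274, 0.0300 and 0.0414), and Ppl lost its call (0.0558). No gene of these 4 lists was called between unrecombined and wild type cells. Without recombined 3 and 4, the calls of Perp, Dsg1a, Dsg1b, Krt5, Krt14, Krt17, Egfr and Atp2a2 against wild type were lost, with edgeR adjusted p of 0.0637 to 0.253, and those of Trp63, Adam10, Cdh3 and Pvrl1 were not.

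For the 3 desmosome genes with the largest fold change against wild type, the loci closest in pattern were found by the root mean square difference of log2 CPM, each centred on its own mean, over the 12 libraries. Among 8003 candidate loci, Nalcn, Wif1 and Bcl11b were closest to Dsg3, at 1.34, 1.45 and 1.49 log2 units, where the median locus was at 2.93. Wif1, Nalcn and Chst11 were closest to Dsc3, at 1.08, 1.17 and 1.24, against a median of 2.62. Jag1, Fam101b and Csdc2 were closest to Pkp1, at 0.32, 0.33 and 0.35, against a median of 1.05. The 12 libraries share their groups, so this is a description.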

How the data were processed

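RNA of 12 libraries was read from 1 table of raw counts deposited by the authors, per the file headers, with whole numbers that sum to a different total in each library. Per the submitters' processing notes, STAR, HTSeq 0.3.1 and mm9 were used. Options, strand setting and annotation are not given in the sources used here, so reads of overlapping or antisense genes may be in a count. Entries that name several loci (0.0617% to 0.101% of counts) were left out, and 3266 of the remaining entries join several symbols, none of them a desmosome gene.

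Counts were scaled by TMM in edgeR 4.0.16 (R 4.3.3) and fitted by quasi-likelihood (F test) with a robust dispersion estimate, using the 12 libraries together and 1 mean per group. The default filter left 14039 loci. All tests were two-sided. Benjamini-Hochberg adjustment ran over these loci, and the threshold was 0.05. The median SE of a log2 fold change was 0.37. CPM values are TMM-scaled, and ± after a mean is the SD of 4 libraries. The procedure was tested on simulated data.

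The members and the lists (4 of pathways and 11 of cell types) were chosen with earlier results of these data known. Named are all 10 members, up to 4 called genes of each pathway list and those at 0, and the 3 loci most like each of the 3 members with the largest fold change. Kazn, Nectin1, Adgre1, Bpifa2 and Muc10 were not found by these symbols and are not analysed here. Of the cell type lists not described in the report, luminal progenitor, epidermis, salivary gland, striated muscle and adipocyte lists had 0 called genes in the 3 edgeR comparisons. Of 5 endothelial markers 1 fell against unrecombined cells, or 3 with the replicate block and these 2 groups alone (Pecam1, Kdr and Emcn), and of 4 tested macrophage and dendritic cell markers 3 fell against wild type.

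Pairing by library number was checked by correlating deviations from the group means over all loci. It was 0.219, 0.357, 0.223 and 0.261 between recombined and unrecombined libraries of numbers 1 to 4, -0.031, 0.135, 0.0825 and 0.107 between recombined and wild type libraries, and 0.00855, 0.279, 0.114 and 0.149 between unrecombined and wild type libraries. Every value was over 0.1 in the first of these alone. Between libraries of different numbers they were -0.238 to -0.00977, -0.135 to 0.145 and -0.236 to 0.315, in the same order. Deviations sum to 0 within a group, so high same-number values push the others down. The numbers were therefore read as pairs for recombined and unrecombined libraries alone. The labels do not say what the numbers stand for. Alternatives were DESeq2 1.42.0, limma-voom (limma 3.58.1), other scalings, filters, covariates and left-out libraries.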

Additional observations from a re-analysis of the deposited data

Results flagged for a closer look

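In 2 of the 30 sets of 4 libraries (10 genes in 3 groups), 1 library stood far from the other 3 by Dixon's test at the 95% level, which chance alone gives in about 1 of 20 sets. Dsc2 was at 53.3 CPM in wild type library 2 and at 24.4 to 27.6 CPM in the other wild type libraries. Dsg3 was at 21.2 CPM in unrecombined library 4 and at 0.359 to 1.17 CPM in the other unrecombined libraries.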

How the results depend on the processing

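Recombined against wild type cells gave 920 called loci and 5 desmosome genes. DESeq2 called 1617 loci, the fit of the 2 groups alone 594, the replicate block with those groups 609 and the fit without recombined 3 and 4 248. The desmosome genes called were 3 with limma-voom, 3 with no filter on low counts, 2 with library series as a covariate and 0 without recombined 3 and 4. Leaving out 1 library gave 502 to 1217 loci and 2 to 5 desmosome genes. Recombined against unrecombined cells gave 733 loci and 3 desmosome genes. DESeq2 called 1349 loci, 282 remained in number without recombined 3 and 4, and 352 without unrecombined 2 and 4. The desmosome genes called were 1 with the 2 groups alone, 6 with the replicate block and the 2 groups, and 0 without recombined 3 and 4. Without unrecombined 2 and 4 there were 4, and Pkp1 was not among them (log2 fold change 2.03, edgeR adjusted p 0.0725). Leaving out 1 library gave 449 to 1044 loci and 0 to 3 desmosome genes. Unrecombined against wild type cells gave 0 loci, 78 with DESeq2, 18 with limma-voom, 8 with the 2 groups alone, 1 with the replicate block, 18 with the block and the 2 groups, and 0 without any 1 library.

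With the replicate block over all 12 libraries, Dsc3 lost its call against wild type (log2 fold change 4.46, adjusted p 0.058). Dsp lost it with upper-quartile scaling (0.95, adjusted p 0.0534). With limma-voom, Dsc3 and Dsp lost it (limma-voom adjusted p 0.0639 and 0.0689). With no filter on low counts, Dsc3 and Dsg3 lost it (edgeR adjusted p 0.0640 and 0.0976). Without the 5 libraries with salivary transcripts, which leaves recombined 3 and 4, Dsg3 lost it (log2 fold change 5.56, edgeR adjusted p 0.0732).

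Some uncalled values changed sign. Dsc2 against wild type in recombined cells was -0.033 with upper-quartile scaling, -0.017 with limma-voom, -0.040 with the replicate block and -0.036 with the block and the 2 groups, and -0.38 to 0.34 without 1 library. In unrecombined against wild type cells, Dsg2 was -0.00345 with upper-quartile scaling and Dsc2 0.017 with the series covariate. Without the 5 libraries with salivary transcripts, values there were 0.064 for Dsc2, -0.15 for Dsg2, 0.088 for Dsp, -0.050 for Pkp2, 0.036 for Pkp3 and -0.14 for Pkp4, and -0.045 for Dsc2 against unrecombined cells. Without unrecombined 2 and 4 they were -0.78 for Dsc3, -0.15 for Dsg3, -0.12 for Pkp1 and 0.16 for Pkp3. Without recombined 3 and 4, Pkp3 was -0.089 against wild type and -0.055 against unrecombined cells. Without 1 library, unrecombined against wild type values were -0.40 to 0.24 for Dsc2, -0.084 to 0.14 for Dsg2, -0.23 to 0.10 for Dsp, -0.18 to 0.24 for Jup, -0.060 to 0.18 for Pkp2, -0.31 to 0.10 for Pkp3 and -0.055 to 0.28 for Pkp4, and Dsc2 against unrecombined cells was -0.29 to 0.42. The cause was not tested. The alternatives that leave out several libraries, and the block with 2 groups, were chosen after seeing the data.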

Other observations

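Unrecombined library 4 also held reads of genes of the suprabasal epidermis. Dsc1, the desmocollin of the upper epidermis, had 199 reads there and 0 to 11 in each of the other 11 libraries. Krtdap, a secreted keratinocyte protein, had 173 reads there and 0 to 14 elsewhere, and Ivl, involucrin of the cornified envelope, had 63 there and 0 to 21 elsewhere. The defining epidermal keratin Krt1 had 8 reads in that library, and Lor, loricrin of the cornified envelope, had 2. Krt1 was highest in recombined library 4, at 131 reads, against 0 to 57 in every other library. Recombined library 4 also had the highest Dsg3 and Dsc3, at 40.0 and 127 CPM, but 0 reads of Dsc1, Krtdap and Ivl. Summed over the 7 epidermal markers, the level was 20.03 CPM in unrecombined library 4 and 9.85 to 21.1 CPM in the others. The highest sum, 21.1 CPM, was that of recombined library 4. These genes were singled out after their values were seen. The part of epidermal cells in the Dsg3 and Dsc3 levels of these 2 libraries was not tested.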
